A study of Rattus norvegicus with 12 samples.

Results

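Olfactory receptor genes whose transcripts gave a measurable array signal in rat renal cortex are described here. A gene was included when its RefSeq symbol had the form of an olfactory receptor name (Or, a family number, a subfamily letter and a member number) and when, in 1 group of rats or more, all 3 arrays carried the scanner software's flag for a signal well above background at 1 of its probes. Of 1111 olfactory receptor genes with a probe on the array, 171 (15.4%) met this rule, against 11518 of the 14173 other named genes (81.3%). The genes were chosen by these detection flags, so detection and signal are given as descriptions with no test.

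The study measured the kidney cortex of 12 rats, each on its own one-colour Agilent array. All were male Sprague-Dawley animals bought at 5 weeks of age. Dosing lasted 4 weeks, with either water (vehicle) or 1000 mg/kg/day of tert-butyl alcohol (TBA), a solvent that the body also forms from some fuel additives. The kill was by bleeding, 24 h past the final dose, with either a CO2-O2 mix (4:1) or isoflurane as anesthetic. The groups were therefore vehicle or TBA under CO2-O2 and vehicle or TBA under isoflurane, with 3 rats in each. The labels call rats of a group biological replicates and give no route of dosing. On slide 1 lay every vehicle CO2-O2 array together with TBA CO2-O2 rat 3. The remaining TBA CO2-O2 arrays shared slide 2 with vehicle isoflurane, while TBA isoflurane filled slide 3. Signals are log2 values relative to the 75th percentile of their array, so that 0 is a signal at that percentile. In bulk cortex, fewer cells of a type and less RNA per cell cannot be told apart.

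Olfactory receptors are G protein-coupled receptors best known from the olfactory epithelium, where each sensory neuron expresses a single receptor gene. There the receptor acts through the G protein alpha subunit Gnal, adenylate cyclase Adcy3 and a cyclic nucleotide-gated channel built on Cnga2, and the chaperones Rtp1 and Rtp2 carry many receptors to the cell surface. The genes are small, lie in clusters and fall into class I (families 51 to 56) and class II (families 1 to 14), and a few receptors are known to act outside the nose, including in the kidney.

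RefSeq windows of 300 bases (250 before to 50 after the annotated start, assembly GRCr8) were found for 139 of the 171 detected genes and 799 of the olfactory receptor genes that were not detected. The windows of 5 genes are printed for the results that turn on them: Or2ak6 and Or4f7c, which are among the 3 brightest, Or12j3 and Or5h27, which alone passed the test in a comparison, and Or51e1, a receptor for some fatty acids that is known outside the nose. Capitals mark an ATG at the annotated start and each TAATTA, the core letters bound by homeodomain factors such as Lhx2 and Emx2. Or2ak6 lies at chr10:43699014-43699313 on the plus strand, Or4f7c at chr3:118914291-118914590 on the minus strand, Or12j3 at chr1:204695205-204695504 on the minus strand, Or5h27 at chr11:54621454-54621753 on the minus strand and Or51e1 at chr1:166559971-166560270 on the plus strand.
Or2ak6: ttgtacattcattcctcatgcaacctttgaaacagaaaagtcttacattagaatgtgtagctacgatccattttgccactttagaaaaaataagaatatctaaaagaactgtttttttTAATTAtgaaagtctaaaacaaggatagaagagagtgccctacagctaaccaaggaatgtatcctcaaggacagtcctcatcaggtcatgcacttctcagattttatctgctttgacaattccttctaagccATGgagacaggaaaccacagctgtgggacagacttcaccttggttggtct
Or4f7c: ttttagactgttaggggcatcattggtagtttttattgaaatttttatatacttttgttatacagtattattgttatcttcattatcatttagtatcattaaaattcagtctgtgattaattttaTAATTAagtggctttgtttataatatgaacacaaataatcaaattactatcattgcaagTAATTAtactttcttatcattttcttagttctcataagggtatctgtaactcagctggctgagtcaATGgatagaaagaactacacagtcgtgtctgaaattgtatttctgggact
Or12j3: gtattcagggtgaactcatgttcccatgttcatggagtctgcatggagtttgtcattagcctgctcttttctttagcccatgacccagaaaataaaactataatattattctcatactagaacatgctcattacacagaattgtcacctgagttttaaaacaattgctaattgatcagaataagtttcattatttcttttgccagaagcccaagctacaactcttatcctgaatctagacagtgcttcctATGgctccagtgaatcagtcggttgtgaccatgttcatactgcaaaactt
Or5h27: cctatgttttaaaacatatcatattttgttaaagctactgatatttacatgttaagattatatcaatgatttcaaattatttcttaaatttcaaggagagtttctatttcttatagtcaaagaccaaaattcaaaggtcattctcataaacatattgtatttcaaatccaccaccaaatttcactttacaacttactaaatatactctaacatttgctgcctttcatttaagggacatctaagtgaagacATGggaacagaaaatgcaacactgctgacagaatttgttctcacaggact
Or51e1: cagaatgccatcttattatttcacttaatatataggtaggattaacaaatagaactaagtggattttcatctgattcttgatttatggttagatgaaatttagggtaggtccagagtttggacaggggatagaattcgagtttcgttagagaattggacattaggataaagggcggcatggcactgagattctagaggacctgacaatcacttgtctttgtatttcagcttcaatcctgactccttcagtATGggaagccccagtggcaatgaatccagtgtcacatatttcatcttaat

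In 138 of the 139 windows of detected genes (99.3%) the annotated start was an ATG, against 3012 of all 33469 windows in the table. The windows therefore precede the start codon of the gene model and not a mapped transcription start. On either strand, TAATTA stood in 26 of 139 windows of detected genes (18.7%), in 143 of 799 of those not detected (17.9%) and in 5.36% of all windows. Or4f7c had 2 matches and Or2ak6 had 1, while the printed windows of Or12j3, Or5h27 and Or51e1 held none. The letters TATAAA, bound by general transcription factors, were in 30.2% of windows of detected genes, 38.8% of those not detected and 14.2% of all.

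Detection was spread over the families. Class I held 22 detected genes of 123 (17.9%) and class II 149 of 988 (15.1%). Family 2 had the most, 31 of 118 (26.3%), followed in number by family 4 (25 of 144), while family 7 had 3 of 56 (5.36%). Among other chemosensory receptors, 12 of 49 type 1 vomeronasal receptors (24.5%), 11 of 67 type 2 vomeronasal receptors (16.4%), 1 of 16 trace amine-associated receptors and 0 of 31 type 2 taste receptors were detected. The rule reads the current symbol, and 58 genes on the array still carry an older Olr symbol; 11 of them were detected and are not members. Such a gene is Olr59, listed with the synonym Or51e2 for a receptor that responds to short-chain fatty acids in renal vessels. Both of its probes were well above background on all 12 arrays, with means of -1.91 and -3.27.

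Of the 171 genes, 112 were well above background on all 12 arrays, and the remaining genes were so on 4 to 11 arrays. By group, 21 genes met the rule in 1 group, 14 in 2, 24 in 3 and 112 in all 4. Vehicle CO2-O2 alone brought in 12 genes, TBA CO2-O2 3, vehicle isoflurane 2 and TBA isoflurane 4. The same counts by group were not made over all features. Among the 940 genes outside the rule, 707 were well above background on no array, 185 on 1 to 3 arrays and 48 on 4 or more. Just inside the rule were Or9e1 (6 arrays, mean -5.75), Or4c121 (7 arrays, -5.76) and Or4c31e (4 arrays, -5.88). Just outside were Or4c11 (8 arrays, -5.01), Or7a37 (8 arrays, -5.36) and Or52ae9 (7 arrays, -5.20), none of them on all 3 arrays of a group.

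The number of olfactory receptor genes well above background on a single array ran from 157 to 295. It was 194, 178 and 213 in vehicle CO2-O2 rats 1 to 3, and 233, 226 and 167 in the TBA CO2-O2 rats. The vehicle isoflurane rats had 214, 174 and 295, and the TBA isoflurane rats 174, 169 and 157. The counts of the groups overlapped, except that all TBA isoflurane rats lay below all vehicle CO2-O2 rats. The lowest signal that an array flagged well above background moved with these counts, from -6.26 in vehicle isoflurane rat 3 with 295 genes to -5.04 in TBA isoflurane rat 3 with 157. The median local background was 24 to 27 intensity units on slides 1 and 2 and 42 to 49 on slide 3. The part of the floor in the counts was not tested.

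**Figure D1:**
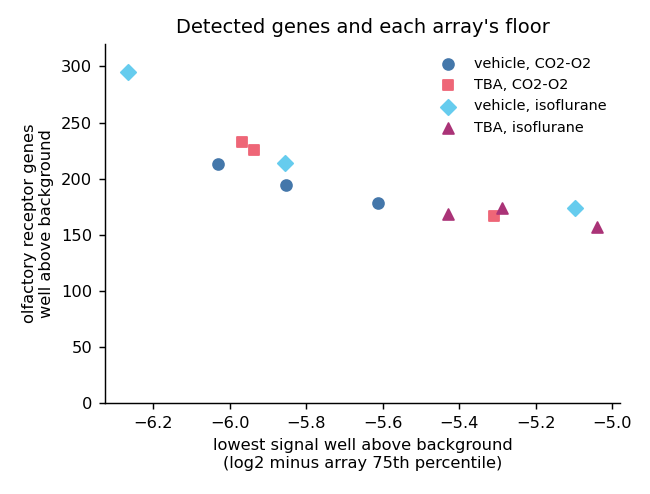
Number of olfactory receptor genes well above background on each of the 12 arrays (vertical axis, from 0) against the lowest signal that the same array flagged well above background (horizontal axis, log2 minus the array's 75th percentile), 1 point per rat, marked by group. The count falls from 295 at a floor of -6.26 to 157 at a floor of -5.04.

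Most detected olfactory receptor genes were dim. Their median signal was -3.97 (6.37% of the 75th percentile of the array), with quartiles of -4.71 and -2.98, while the median of all 29603 features tested was -0.89. Signals also depend on the probe, so they are not ranked here as transcript amounts. Only 4 genes had a mean above the 75th percentile, 8 lay within 1 log2 unit below it, and 84 lay below -4. The median SD between rats of a group was 0.26 over the 171 genes and 0.15 over all features. It was 0.21 for the 20 genes above -2 and 0.31 for the 84 below -4.

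The brightest was Or2ak6 (older symbol Olr1439), at 2.71, 2.59 and 2.62 in vehicle CO2-O2 rats 1 to 3 and 2.83, 2.65 and 2.47 in the TBA CO2-O2 rats. In the vehicle isoflurane rats it was at 2.55, 2.75 and 2.60, and in the TBA isoflurane rats at 3.10, 2.82 and 2.83. The TBA isoflurane rats did not overlap the vehicle rats under either anesthetic, but TBA CO2-O2 rat 1 lay above 2 of them, and the other groups overlapped. Or13l2 followed, with values from 1.81 to 2.46 (vehicle) and 2.44 to 2.82 (TBA) under CO2-O2 and from 2.06 to 2.44 (vehicle) with a mean of 2.52 (TBA) under isoflurane. Or4f7c ranged from 0.78 to 1.62 and Or2t48e from 0.06 to 0.62. The other 8 of the 12 brightest genes that were measured on every array, Or8w1b, Or6al1, Or10am5, Or13a27e, Or1f26, Or4d6, Or2t47d and Or4a80, had means from -0.04 to -0.76.

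**Figure D2:**
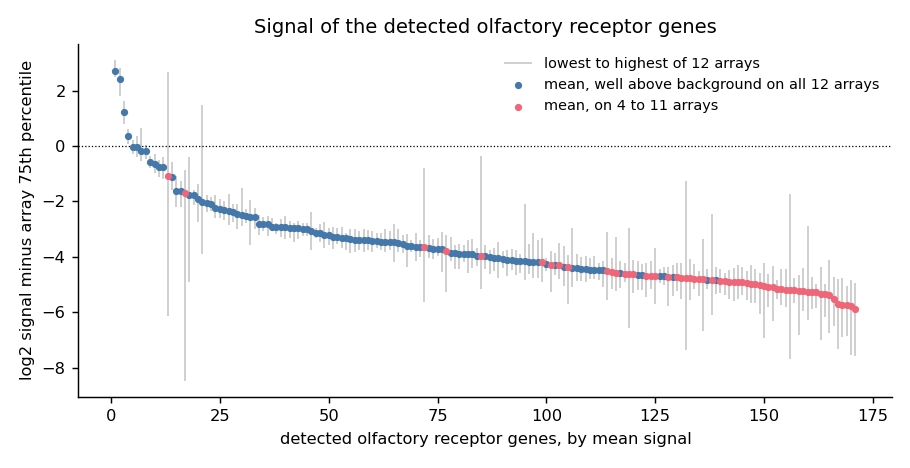
Signal (vertical axis, log2 minus the array's 75th percentile) of the 171 detected olfactory receptor genes in order of their mean (horizontal axis), with points for the mean of 12 arrays, coloured by whether all 12 arrays were well above background, and grey lines from the lowest to the highest array. The median is -3.97, 4 genes lie above 0, and the longest grey lines mark genes that differed between rats.

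Probes of the same olfactory receptor gene seldom gave a like signal. Of the 117 detected genes with 2 or more probes, 12 (10.3%) had every probe detected by the same rule, against 5666 of 6978 other detected genes with several probes (81.2%). In 94 of the 117, a probe was well above background on no array. Or6al1 had a mean of -0.05 with 1 probe and -7.59, on no array above background, with its other. Or4d6 had -0.65 and -7.62 in the same way. Or2ak6 was an exception, with means of 2.71 and 1.46 and both probes above background on all 12 arrays. The other 11 genes with every probe detected were Or11m3, Or13a25, Or1f20, Or2b11, Or4b1, Or4c31e, Or4g17, Or51b6, Or51e1, Or52s6 and Or6b13. The probe sequences were not used here, and why probes of a gene differ was not tested.

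**Figure D3:**
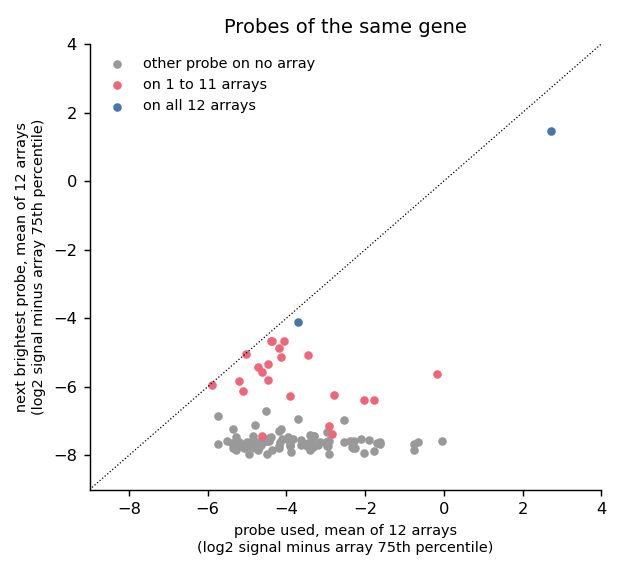
Mean signal over 12 arrays of the probe used (horizontal axis) and of the next brightest probe of the same gene (vertical axis), both as log2 minus the array's 75th percentile, for the 117 detected genes with 2 or more probes; colour gives the number of arrays on which the second probe was well above background and the dotted line marks equal signals. In 94 genes a probe was above background on no array.

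Genes of the olfactory signalling pathway were measured beside the receptors. The G protein subunit Gnal had a mean of -2.02 on 12 arrays, and the cyclase Adcy3 a mean of -5.23 and was well above background on 9. The channel subunit Cnga2 and the chaperone Rtp1 were well above background on no array, and Rtp2 was so on 2. Of the listed genes on the array, transduction had 6 of 9 genes detected, termination and adaptation 5 of 6, receptor gene choice 6 of 9, receptor trafficking 1 of 3 (Reep1) and ion handling 1 of 1. No gene of these lists passed the test in any of the 7 comparisons (limma, Benjamini-Hochberg adjusted p under 0.05).

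Most defining markers of olfactory sensory neurons were not well above background. Of 9 listed markers on the array 2 were detected, the G protein gamma subunits Gng13 (mean 3.64) and Gng8 (0.66), both measured on all 12 arrays. Omp, the marker protein of mature olfactory neurons, and Cnga2, Cnga4, Stoml3 and Rtp1 were above background on no array, and Rtp2 and Cngb1 on 2. The summed linear signal of the list, relative to the 75th percentile, ran from 19.2 to 27.7 in vehicle CO2-O2 rats, 10.4 to 18.3 in TBA CO2-O2 rats, 8.67 to 15.3 in vehicle isoflurane rats and 7.02 to 26.8 in TBA isoflurane rats. Most of that sum is Gng13, which passed in no comparison (-0.94 ± 0.52 for TBA under CO2-O2, limma adjusted p = 0.447). Olfactory mucosa markers were detected for 2 of 6 genes, testis germ cell markers for 3 of 6 and neuron markers for 0 of 3, while all 7 proximal tubule and all 4 podocyte markers were detected, as were Umod, Slc12a3, Aqp2 and Atp6v1b1. Pvalb, the other distal convoluted tubule marker, was well above background on no array (mean -7.30).

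The first comparison is of TBA with vehicle under CO2-O2. None of the 171 genes passed the adjusted threshold (limma, Benjamini-Hochberg over 29603 features), where 0.128% of all features were called higher and 0.0203% lower. At an unadjusted p under 0.05, 39 genes were counted, 31 higher (18.1%, against 8.71% of all features) and 8 lower (4.68%, against 5.54%). The groups did not overlap for 24 genes that were higher and 6 that were lower, against 11.9% and 9.07% of all features. Differences between groups ran from -4.01 to 1.76, and the smallest adjusted p was 0.118, for Or6c3b.

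Among genes measured on every array of both groups and without overlap, the higher signals in TBA rats included Or52n1b, a class I receptor. Its signal was -4.70, -5.07 and -4.76 in vehicle rats and -3.62, -3.83 and -4.36 in TBA rats, a difference of 0.91 ± 0.20 (SE, n = 3 per group, limma adjusted p = 0.124). TBA rat 3, the array on slide 1, was the lowest of the 3, and without it the difference was 1.12 (adjusted p = 0.0483). Over 25 alternatives the difference of Or52n1b ran from 0.27 (normexp) to 1.12 and its adjusted p up to 0.536 (slide as a fixed term, 0.48), and no other alternative gave a call. Or52p2 differed by 1.26 ± 0.37 (adjusted p = 0.198), from -4.80 in vehicle rats on average to -3.54 in TBA rats. Lower signals in TBA rats were led by Or2n1el1 (-3.71 ± 1.29, adjusted p = 0.244) and Or2n1j (-2.96 ± 0.75, adjusted p = 0.157), which varied widely between rats of a group and are described further on.

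Under isoflurane, TBA rats had a lower signal of 1 gene, Or12j3 (1 of 171, 0.585%, where 0.145% of all features were called lower and 0.25% higher). Or12j3, a class II receptor, was at -5.28, -5.18 and -5.36 in the vehicle isoflurane rats and at -7.31, -6.94 and -7.06 in the TBA isoflurane rats. It was at -5.25, -4.80 and -5.37 in vehicle CO2-O2 rats and at -4.99, -5.30 and -5.58 in TBA CO2-O2 rats. All 3 TBA isoflurane rats lay below the other 9 rats, whose groups overlapped. The fitted difference was -1.83 ± 0.18 (SE, n = 3 per group, limma adjusted p = 0.0214). The probe was well above background on 3, 2 and 2 arrays of the other groups and on none of the TBA isoflurane group, so the fitted size is no measured fold. Against vehicle CO2-O2, the group with all arrays measured, the signal of Or12j3 was at least 1.08-fold lower, a bound that takes each TBA isoflurane array at its lowest well-measured signal. These groups differ in treatment, anesthetic and slide. The call was lost in 11 of 23 alternatives (adjusted p from 0.0117 to 0.303 over all of them), among them each of the 3 TBA isoflurane rats left out (0.0519, 0.0763 and 0.0622), vehicle isoflurane rats 2 or 3 left out (0.108 and 0.0552), vehicle CO2-O2 rat 1 left out (0.0665) and normexp background correction (-0.12, adjusted p = 0.303).

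No other member passed in this comparison, in which 25 had an unadjusted p under 0.05: 21 were higher (12.3%, against 10.7%) and 4 lower (2.34%, against 7.13%). Or2w2 was at -3.73, -3.71 and -3.59 in vehicle rats and -3.16, -3.02 and -3.08 in TBA rats (difference 0.59 ± 0.13, adjusted p = 0.0751), without overlap. Or14a258 was at -2.75, -2.86 and -2.73 in vehicle rats and -2.15, -2.31 and -1.71 in TBA rats (0.72 ± 0.21, adjusted p = 0.125), again without overlap. Of the genes measured on every array and lower, Or4a80 differed by -0.35 ± 0.12 (adjusted p = 0.164). The groups did not overlap for 34 genes that were higher and 5 that were lower, against 14.3% and 9.69% of all features.

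Averaged over anesthetics, TBA was tied to calls for 2 of 171 genes, 1 higher (0.585%, against 1.4% of all features) and 1 lower (against 0.49%). Or12j3 was the lower gene (-0.99 ± 0.13, adjusted p = 0.0111). It met the detection rule only through vehicle CO2-O2, on the high side of this comparison. The fitted size rests on TBA isoflurane signals that were not well above background, so it is no measured fold. The 1.08-fold bound compares vehicle CO2-O2 with TBA isoflurane, which differ in treatment, anesthetic and slide. It therefore bounds no difference for TBA alone. Or5h27, a class II receptor, was the higher gene. Its signal was -5.12, -5.06 and -5.29 in vehicle CO2-O2 rats, -4.87, -5.00 and -4.77 in TBA CO2-O2 rats, -4.82, -5.05 and -4.92 in vehicle isoflurane rats and -4.51, -4.44 and -4.55 in TBA isoflurane rats. TBA rats were above vehicle rats without overlap under each anesthetic, while vehicle isoflurane and TBA CO2-O2 rats overlapped. The averaged difference of Or5h27 was 0.36 ± 0.06 (SE, n = 6 rats per treatment, limma adjusted p = 0.0297). It was 0.28 ± 0.09 under CO2-O2 (adjusted p = 0.216) and 0.43 ± 0.09 under isoflurane (adjusted p = 0.0688).

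The rise of Or5h27 lost its call in 12 of 21 alternatives (adjusted p from 0.0316 to 0.113), 8 of them with a rat left out: each vehicle CO2-O2 rat in turn (0.0728, 0.0521 and 0.0681), TBA CO2-O2 rat 1 (0.0689), vehicle isoflurane rats 2 and 3 (0.0725 and 0.0772) and TBA isoflurane rats 1 and 2 (0.058 and 0.0706). Its other probe was above background on no array. The fall of Or12j3 in the average lost its call in 1 of 21, normexp (adjusted p = 0.391). At an unadjusted p under 0.05, 32 members were higher and 7 lower in the averaged comparison, against 12.2% and 6.8% of all features. All TBA rats lay above all vehicle rats for 2 members (1.5% of all features) and below them for none (0.524%).

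With each rat left out in turn, the counts of calls for TBA under CO2-O2 and averaged over anesthetics were highest without TBA CO2-O2 rat 3. Then 204 olfactory receptor genes met the detection rule, and 17 of them were called in the averaged comparison, 16 higher and Or12j3 lower, where 2.97% of all features were called (1.88% with all rats). Under CO2-O2, 4 were called, where 0.451% of all features were (0.149% with all rats). All 4 were higher: Or13a27e (0.44, adjusted p = 0.0497), Or2t48e (0.45, 0.0453), Or52n1b (1.12, 0.0483) and Or52l1 (3.22, 0.02115). Or52l1 is not among the 171, and neither are Or1e18, Or1j16b and Or7a38 of the averaged calls. Without rat 3 the rule asked for fewer TBA CO2-O2 arrays, so these genes entered only through that group, their higher side. Their differences are therefore descriptions. Without vehicle isoflurane rat 3, Or6ae1 alone was called under CO2-O2 (0.64, adjusted p = 0.0349). Among genes measured on all 12 arrays, Or12e9 differed by 0.48 ± 0.12 on average (adjusted p = 0.0673) and Or4d6 by 0.27 ± 0.07 (adjusted p = 0.0847), both without overlap. Or12e9 passed without TBA CO2-O2 rat 3 (0.57, adjusted p = 0.0275).

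Isoflurane was compared with CO2-O2 within each treatment, and these comparisons share rats with those of TBA. In vehicle rats no member passed (0.0574% of all features were called higher and 0.0473% lower), and the smallest adjusted p was 0.0929. At an unadjusted p under 0.05, 26 were higher and 7 lower, against 9.87% and 8.81% of all features. The groups did not overlap for 39 that were higher and 10 that were lower, against 14.9% and 14.2%. Or5h26 was at -4.15, -4.43 and -4.19 under CO2-O2 and -3.73, -3.44 and -3.30 under isoflurane (0.77 ± 0.30, adjusted p = 0.216). Or2b4 was at -4.02, -3.39 and -3.86 under CO2-O2 and -4.39, -4.51 and -4.39 under isoflurane (-0.67 ± 0.24, adjusted p = 0.187). With slide as a fixed term both differences changed sign, to -0.44 and 0.09. That slide term comes only from TBA CO2-O2 rat 3 against the other TBA CO2-O2 rats, and no vehicle rat informs it.

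In TBA rats Or12j3 was the only member called (-1.81 ± 0.18, adjusted p = 0.0231), and it was the only one of 29603 features called lower (0.00338%; another 0.00338%, also 1 feature, was called higher). That call was lost in 11 of 23 alternatives (adjusted p up to 0.36), which included 9 of the 12 with a rat left out: vehicle CO2-O2 rat 1 (0.0712), TBA CO2-O2 rats 1 and 2 (0.107 and 0.0677), each vehicle rat under isoflurane (0.063, 0.082 and 0.0722) and each TBA rat under isoflurane (0.18, 0.0839 and 0.186). The probe of Or12j3 was well above background on 2 TBA CO2-O2 arrays and on none of TBA isoflurane, so this fitted size too is no measured fold. TBA isoflurane filled slide 3, so slide and group cannot be told apart there. Or4c15 was at -3.00, -3.22 and -3.23 under CO2-O2 and -3.83, -3.47 and -3.59 under isoflurane (-0.48 ± 0.11, adjusted p = 0.177). Or8c19 had means of -3.82 under CO2-O2 and -3.43 under isoflurane (0.40 ± 0.09, adjusted p = 0.19). Neither overlapped between groups. In these rats 20 members were higher and 6 lower at an unadjusted p under 0.05, against 5.53% and 5.31% of all features, and the groups did not overlap for 21 and 8, against 7.92% and 7.22%.

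Averaged over treatments, isoflurane minus CO2-O2 called Or12j3 alone among members (-0.97 ± 0.13, adjusted p = 0.0185; 0.108% of all features were called lower and 0.179% higher). Its fitted size is again no measured fold, since vehicle CO2-O2 is on the high side and TBA isoflurane was not well above background. That call was lost without TBA CO2-O2 rat 1 (0.0509), vehicle isoflurane rat 2 (0.0571) or 3 (0.0561) or TBA isoflurane rat 3 (0.0551), with no filter on dim probes (0.055) and under normexp (0.0806). At an unadjusted p under 0.05, 28 were higher and 6 lower in that average, against 9.54% and 7.64%, and all isoflurane rats lay above all CO2-O2 rats for 1 member (0.665% of all features) and below for none (0.534%). The test of whether the TBA difference depends on the anesthetic called 0 members and 0 of all features (0% in each direction), with 9 members higher and 12 lower at an unadjusted p under 0.05 (5.77% and 6.31% of all features) and a smallest adjusted p of 0.145, for Or12j3 (-1.67 ± 0.25). The differences of Or12j3 under CO2-O2 (-0.15 ± 0.18) and isoflurane are therefore not shown to differ after adjustment. Or51e1 was measured on all 12 arrays with a mean of -4.48 and passed in no comparison. It was at -4.65, -4.59 and -4.63 in vehicle CO2-O2 rats, -4.40, -3.97 and -4.31 in TBA CO2-O2 rats, -4.27, -4.72 and -4.52 in vehicle isoflurane rats and -4.42, -4.81 and -4.42 in TBA isoflurane rats. Its TBA difference under CO2-O2 was 0.39 ± 0.15 (adjusted p = 0.279), without overlap.

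**Figure D4:**
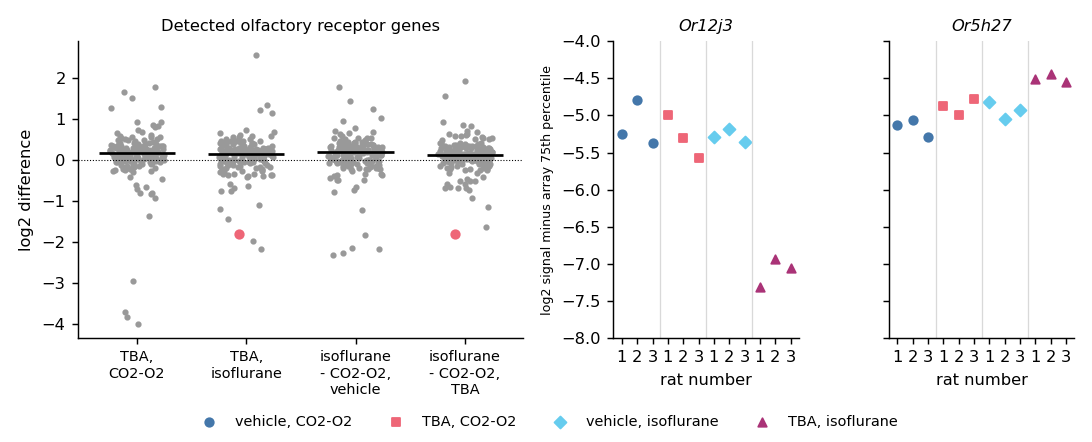
Left, log2 differences of the 171 detected olfactory receptor genes in 4 comparisons (1 point per gene, spread sideways for legibility; red, adjusted p under 0.05; bar, median). Middle and right, log2 signal minus the array's 75th percentile of Or12j3 and Or5h27 in each rat: Or12j3 is between -6.94 and -7.31 in the TBA isoflurane rats and above -5.6 elsewhere, and Or5h27 is highest in the TBA isoflurane rats, at -4.44 to -4.55.

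The median differences of the detected genes were slightly above those of all features in TBA and isoflurane rats. Their median difference for TBA was 0.15 under CO2-O2 (121 of 171 higher) and 0.13 under isoflurane (111 higher), where the medians over all features were 0.02 and 0.02. For isoflurane minus CO2-O2 it was 0.18 in vehicle rats (117 higher) and 0.11 in TBA rats (115 higher), against 0.01 and 0.01. Of the 7 proximal tubule markers, the transporters Slc5a12 and Slc22a8 were called higher in TBA rats. Slc5a12 differed by 0.80 under CO2-O2 (limma adjusted p = 0.0421) and 0.68 averaged (0.00986), and Slc22a8 by 0.38 averaged (0.0292). The other markers passed in no comparison, and Lrp2 alone was lower under CO2-O2 (-0.15, limma adjusted p = 0.44). Slc5a12 alone was lower under isoflurane averaged over treatments (-0.23, limma adjusted p = 0.21). The part of these markers in the medians was not tested. Under quantile and median scaling these 4 medians stayed between 0.10 and 0.18. They turned negative for TBA under CO2-O2 when slide was a fixed term (-0.06) or slide 1 was taken alone (-0.06), for isoflurane in vehicle rats with slide as a fixed term (-0.18) and under normexp (-0.03), and for isoflurane in TBA rats within scan day 2 (-0.03) and without TBA CO2-O2 rat 3 (-0.05). Both values of -0.06 are the same estimate, of TBA CO2-O2 rat 3 alone against the vehicle rats of slide 1. The slide term behind -0.18 comes only from that rat against the other TBA CO2-O2 rats, and scan day 2 leaves it out. Except under normexp, these negative medians thus turn on the same 1 rat. That rat left out gave 0.29 for TBA under CO2-O2. Over all features the median for isoflurane in vehicle rats under normexp was also -0.03. In the other fits where the members' median was negative, it ran from -0.002 to 0.012. With no filter on dim probes, the medians over 1111 genes for TBA were 0.11 under CO2-O2 and 0.40 under isoflurane. Those for isoflurane minus CO2-O2 were 0.13 in vehicle rats and 0.45 in TBA rats. All features then had 0.04, 0.07, 0.04 and 0.06 in that order. The median of the interaction was -0.05, and it was positive under quantile scaling (0.02), median scaling (0.02) and normexp (0.10). It was also positive without TBA CO2-O2 rat 1 (0.01) and, over 1111 genes, with no filter on dim probes (0.26).

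Signals were also compared by slide. In 19 of 171 genes (11.1%) the 4 arrays of slide 1 all lay below the 8 arrays of the other slides, and in 1 gene (0.585%) they all lay above, against 2.98% and 1.49% of all features. Or2t48e, 1 of these 19, was at 0.06 to 0.19 on slide 1 and 0.31 to 0.62 elsewhere. The 19 were picked by that split, so TBA CO2-O2 rat 3 lies with the vehicle rats of its slide in each. Or5h26 was at -4.55 to -4.15 on slide 1 and -3.73 to -3.09 elsewhere. Slide 1 also was the slide scanned on day 1, and slide 3 held 1 group only, so slide and group cannot be told apart for TBA isoflurane. Slide 1 held every vehicle CO2-O2 array and only TBA CO2-O2 rat 3 besides, so there too slide and group are largely joined. It held no array of the TBA comparison under isoflurane. The part of the slides in the medians was not tested.

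A few genes differed widely between rats of the same group. In 9 of the 171 (5.26%) the pooled SD within groups was above 1 log2 unit, against 347 of 29603 features (1.17%); these genes were chosen for that spread after their values were seen. Or6z1 was at -8.47 in vehicle isoflurane rat 3 and between -1.38 and -0.87 in the other 11 rats. Or5b95 was at -0.34 in vehicle isoflurane rat 1 and between -5.17 and -3.63 elsewhere. Or52n2f was between -3.72 and -2.96 in 5 rats, which came from all 4 groups, and between -6.55 and -4.97 in the other 7.

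Or13p4 and Or5b123b took opposite levels in the same rats. Or13p4 was at -4.91 in vehicle CO2-O2 rat 2, -4.75 in vehicle isoflurane rat 2 and -4.58 in TBA isoflurane rat 3, and between -1.28 and -0.39 in the other 9. Or5b123b was highest in those 3 rats, at 1.47, -0.87 and 1.37, and between -3.90 and -2.19 in the other 9. Both probes were well above background on all 12 arrays, and the second probe of each gene was so on 1 array at most. The 3 rats came from 3 groups and all 3 slides.

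Another set of 4 genes shared their 3 highest rats and their lowest. Or2n1el1 was at 2.68, -0.42 and 2.32 in vehicle CO2-O2 rats, -1.98, -2.88 and -1.69 in TBA CO2-O2 rats, -1.36, -1.23 and 0.39 in vehicle isoflurane rats and -0.78, -6.13 and -1.83 in TBA isoflurane rats. Or2n1j was at -0.81, -3.46 and -1.07, then -4.49, -5.17 and -4.55, then -3.87, -4.28 and -2.71, and then -3.47, -5.63 and -4.07 in the same order. In both genes vehicle CO2-O2 rats 1 and 3 were highest, vehicle isoflurane rat 3 came next and TBA isoflurane rat 2 was lowest, while the order of the rats between differed. Or2n1e and Or6c3b had that order at the top and the same lowest rat. Over the 12 arrays, Pearson's r among the 4 genes ran from 0.92 (Or2n1el1 with Or6c3b) to 0.99 (Or2n1j with Or2n1e), given as a description of arrays that also share slides and groups.

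Of 29581 features with a value on every array, 20 had an r above 0.9 with Or2n1el1, and 3 of these were members. The named genes most like it with an SD over arrays above 0.5 were Or2n1j, Or2n1e, Pcsk6 (r = 0.93), Or6c3b and Prss30 (0.92). For Or13p4 the tachykinin gene Tac4 was the most like (r = 0.99), and for Or6z1 it was Fhdc1 (r = 1.00), which rests on 1 rat. Or2n1e and Or6c3b were well above background on all 3 vehicle CO2-O2 arrays and on none of TBA CO2-O2. They met the detection rule only through vehicle CO2-O2, so this contrast is a description. Their fitted differences, -3.83 ± 0.90 and -4.01 ± 0.89, did not pass (limma adjusted p = 0.133 and 0.118). Vehicle CO2-O2 rats 1 and 3 were highest in both genes, and rat 2 was at -4.43 and -4.66.

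**Figure D5:**
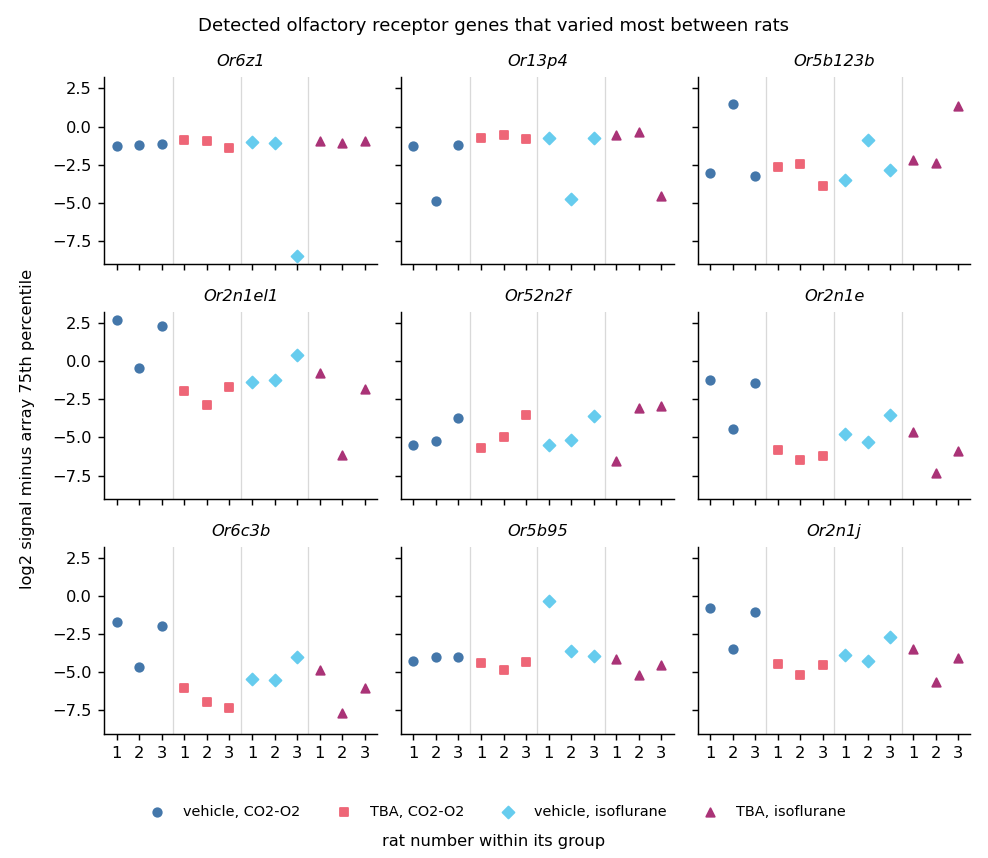
Signal (vertical axis, log2 minus the array's 75th percentile) in each of the 12 rats (horizontal axis, rat number within its group, groups in order vehicle CO2-O2, TBA CO2-O2, vehicle isoflurane, TBA isoflurane) for the 9 detected olfactory receptor genes with a pooled within-group SD above 1. Or6z1 is low in 1 rat at -8.47, Or13p4 is low and Or5b123b high in the same 3 rats, and Or2n1el1, Or2n1e, Or2n1j and Or6c3b share their highest rats.

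In 14 genes, 1 group was well above background on all its arrays and another on none, and the share over all features was not counted. Besides the genes above, Or6c35 was at least 2.28-fold higher in vehicle isoflurane than in vehicle CO2-O2 rats (adjusted p = 0.297) and Or1o11 at least 1.92-fold higher in TBA isoflurane than in vehicle CO2-O2 rats. Among the remaining pairs of groups the bounds were at most 1.70-fold and went down to 1.02-fold for Or56a5, and Or4a77, Or5h27b and Or9e1 had none, nor did Or4c31e against TBA isoflurane. All of these folds use the values that the detection rule used and are descriptions. In gene order along GRCr8, both neighbours of a detected gene were olfactory receptors in 67.3% of detected genes and 68.8% of those not detected, and 2.92% and 5% overlapped another gene. All 171 are annotated as protein coding, as are all 940 that were not detected.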

How the data were processed

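Cy3-labelled cRNA from 0.2 ug of renal cortex RNA was hybridised to one-colour Agilent arrays, 1 per rat. The deposited scanner files hold processed intensity values from Agilent Feature Extraction 10.7 (per the submitters' processing notes; 10.7.1.1 per the file headers), background-subtracted per the file headers, with deposited background and outlier flags. Control spots and spots with an outlier flag were dropped, and log2 intensity minus each array's 75th percentile was analysed. The deposited series table holds a ratio of intensity to that percentile, a scale found from its values and not stated by the authors; its columns matched other replicates of the same group, so replicate numbers are those of the scanner files. Its column medians were 0.101 to 0.107.

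Probe accessions were matched without versions to RefSeq names (27460 of 61657 probes had 1 symbol, 34197 none). The array file's build is not given in the sources used here, so RefSeq coordinates are printed for the RefSeq windows only. Kept probes had that background flag on every array of a group, with the brightest per gene used, giving 29603 features, all 171 members included. The model, from limma 3.58.1 (R 4.3.3), held a mean for each group and no other term, with 8 residual degrees of freedom before eBayes. Benjamini-Hochberg adjustment ran over all features, and 0.05 was the threshold. The fit was tested on simulated data. Replicate numbers did not pair the rats: over 18 same-number pairs the correlation of deviations was -0.13 to 0.13, and 3 were over 0.1.

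The members, the lists and the rule for naming genes were chosen with earlier results of these data known. Named were the 12 brightest measured on all arrays, all called, up to 3 per direction and comparison without overlap, those just inside and outside the detection rule, those with a group at background, and Or51e1 and Or51e2; not all are printed. Vomeronasal gene names, the genes varying most between rats, and the slide 1 and scan day 2 fits were chosen after seeing the data.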

Additional observations from a re-analysis of the deposited data

How the results depend on the processing

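The number of detected olfactory receptor genes was 171. It was 422 with the flag for a positive and significant signal, 404 when 1 of 12 arrays sufficed and 112 when all 12 were needed, and 171 to 207 with each array left out. Leaving out an array eases the rule for its group, so that count could not fall below 171. The median signal of the 171 genes was -0.70 under median scaling and -2.87 under normexp background correction (offset 50), which move the zero and the floor of the scale.

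Counts of called members were 0 for TBA under CO2-O2, 1 under isoflurane and 2 averaged, and 0, 1 and 1 for isoflurane minus CO2-O2 in vehicle rats, in TBA rats and averaged. The interaction count was 0 in every alternative run. Under normexp the counts were 14 for TBA under isoflurane, 6 averaged, 3 for isoflurane in vehicle rats, 0 in TBA rats and 0 averaged over treatments. Of all features, 4.51%, 3.36% and 2.85% were called in the first 3 of these fits, against 0.395%, 1.88% and 0.105% without normexp. TBA under isoflurane gave 3 with median scaling, where 1.04% of all features were called. It gave 0 with slide as a random block, with only the arrays compared and within scan day 2. TBA averaged gave 5 with trend and robust spread, where 3.69% of all features were called. With slide as a fixed term, TBA under CO2-O2 gave 3 and isoflurane in vehicle rats 1, where 0.253% and 0.122% of all features were called. In that fit both comparisons rest on TBA CO2-O2 rat 3 for the slide term, and the other contrasts could not be estimated. Isoflurane in TBA rats gave 0 when all 12 arrays had to be above background and 0 with only the arrays compared, and isoflurane averaged over treatments gave 0 with no filter on dim probes. A like count can hold other genes: with all 12 arrays required, which leaves Or12j3 and Or5h27 out, the calls were Or51i2 for TBA under isoflurane (adjusted p = 0.0467), Or10ak14 and Or8b46 for TBA averaged (0.0438 and 0.0484) and Or5p50 for isoflurane averaged (0.0466), all higher. With all 12 arrays required, 0.544%, 2.92% and 0.709% of all features were called in those 3 comparisons. The cause of the changes between settings was not tested.

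With the replicate number as a block, which the pairing check did not support, TBA under isoflurane gave 0 calls (Or12j3 adjusted p = 0.0788, limma) and TBA averaged 2, Or12j3 and Or2n1e, with Or5h27 lost (adjusted p = 0.0592). The other counts were as without the block.

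With each rat left out in turn, counts were 0 to 4 for TBA under CO2-O2, 0 to 2 under isoflurane and 1 to 17 averaged. They were 0 to 0 for isoflurane in vehicle rats, 0 to 1 in TBA rats, 0 to 1 averaged and 0 to 0 for the interaction. The counts of 4 and 17 both came without TBA CO2-O2 rat 3. There the eased rule detected 204 genes, some of which it let in only through TBA CO2-O2. TBA under CO2-O2 gave 1 or 0 without any other rat. A lone contrast changed sign for 3 named genes: Or5h26 (-0.44) and Or2b4 (0.093) with slide as a fixed term, and Or51e1 for isoflurane in TBA rats (0.029) under normexp. Of the 171 genes, 84 lie below -4, near the floors of -6.26 to -5.04, which limits the size of any fall that could be measured.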
